A study of Rattus norvegicus with 48 samples.

Results

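The effect of inhaled fracking sand dust with diesel exhaust particles on rat lung RNA was measured as an average over 3 sampling days, from all 48 of the 48 lung samples of the study. The comparison set 24 exposed samples against 24 air samples. Day entered the model as an additive block, so that each exposed sample was read against the air samples of its own day and 1 exposure effect was fitted per gene. The animals were healthy male Sprague-Dawley rats from Hilltop, a strain with no engineered allele, kept in pairs in a cage. Exposure was to the whole body in an inhalation chamber, for 6 hours a day on 4 days, at 30 mg/m3 of sand dust together with 1.0 mg/m3 of diesel particles. Control rats breathed filtered air, and both arms were sampled at times labelled 1, 7 and 27 days, with 8 samples in each of the 6 groups. Both agents were always given together, so their separate effects cannot be told apart. RNA from a piece of lung was sequenced as stranded polyadenylated RNA. The labels do not say which rats shared a cage, so p-values measure the spread between these samples.

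Respirable crystalline silica, a main constituent of fracking sand, and diesel soot are both taken up by alveolar macrophages, the phagocytes of the air spaces. Macrophages and epithelial cells that meet such particles release chemokines that draw neutrophils into the lung. Diesel particles also carry polycyclic hydrocarbons that activate the aryl hydrocarbon receptor, and particle surfaces can engage the NRF2 antioxidant program. The additive model fits 1 shift per gene for all sampling times. A difference between days adds to the spread that this shift is tested against, so the daily values are given beside it.

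The deposited tables held 9445687 to 14400337 counts per sample (median 12004528) over 32285 gene identifiers, of which 14852 had enough counts to be tested. Levels below are CPM, that is, counts scaled to a common effective library size. Lung markers were high in every group: the lowest sample held 6470 CPM of Sftpc, a surfactant protein of alveolar type 2 cells, and 1780 CPM of Ager, a marker of alveolar type 1 cells. Other tissue was present unevenly. The sum over 10 heart and pulmonary vein muscle genes ranged from 17.1 to 419 CPM between samples, with its highest median, 212 CPM, in the exposed day 1 group. The sum over 5 skeletal muscle genes was at most 22.9 CPM in 47 samples and 496 CPM in sample 2 of the air group at day 7. Red cell genes summed to 743 to 2740 CPM. The part of such tissue in the results below was not tested. Within groups, 4 pairs of samples had counts closer than the remaining 164 pairs: their differences were 1.442 to 1.671 times the size that counting error gives, and those of the remaining pairs began at 2.425 times. These were samples 1 and 4 among the exposed lungs of day 1, samples 1 and 4 in air at day 7, and samples 3 and 6 both in exposed lungs at day 7 and in air at day 27. The fit was therefore repeated with these pairs summed, which leaves 44 samples. By the rule for named genes, 60 called genes were chosen. All 60 kept their sign there, 34 passed again and 26 did not, and for genes named below that did not pass, the adjusted p of that fit is given.

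Over the 3 days, 731 genes (4.92% of those tested) differed between exposed and air lungs at an adjusted p under 0.05 in edgeR's quasi-likelihood test. Of these, 326 (2.19%) were higher and 405 (2.73%) were lower in exposed lungs. The differences were small. The median size among the called genes was 0.134 on the log2 scale (quartiles 0.107 and 0.179), and 12 genes changed by at least 1.5-fold, 9 of them upward. Without adjustment, 3713 genes had a p under 0.05 in the same test. The median log2 fold change of all tested genes was -0.006, or -0.003 with another scaling (RLE), so the scaling left the centre of all genes close to 0. With the 4 close pairs summed, 309 genes passed (2.08%), 133 higher and 176 lower, and 308 of them were among the 731.

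Of the 731 called genes, 678 (92.7%) had log2 fold changes of 1 sign on all 3 days, 296 upward and 382 downward. Over all tested genes this share was 36.2%, but a gene with 1 sign is more likely to pass a test of its average, so both shares describe the genes and are not a test. The days did not contribute equally. The median size of the called genes' change was 0.097 at day 1, 0.094 at day 7 and 0.204 at day 27, and for 547 of the 731 the day 27 change was the largest. A change with 1 sign and an unadjusted p under 0.05 on every one of the 3 days was found for 23 genes (0.155% of those tested), 8 upward and 15 downward. When the largest of the 3 daily p-values was adjusted over all genes, none passed and the smallest adjusted p was 1. Taken day by day in the same fit, 14 genes (0.0943%) were called at day 1, 1 (0.00673%) at day 7 and 2227 (15.0%) at day 27.

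**Figure D1:**
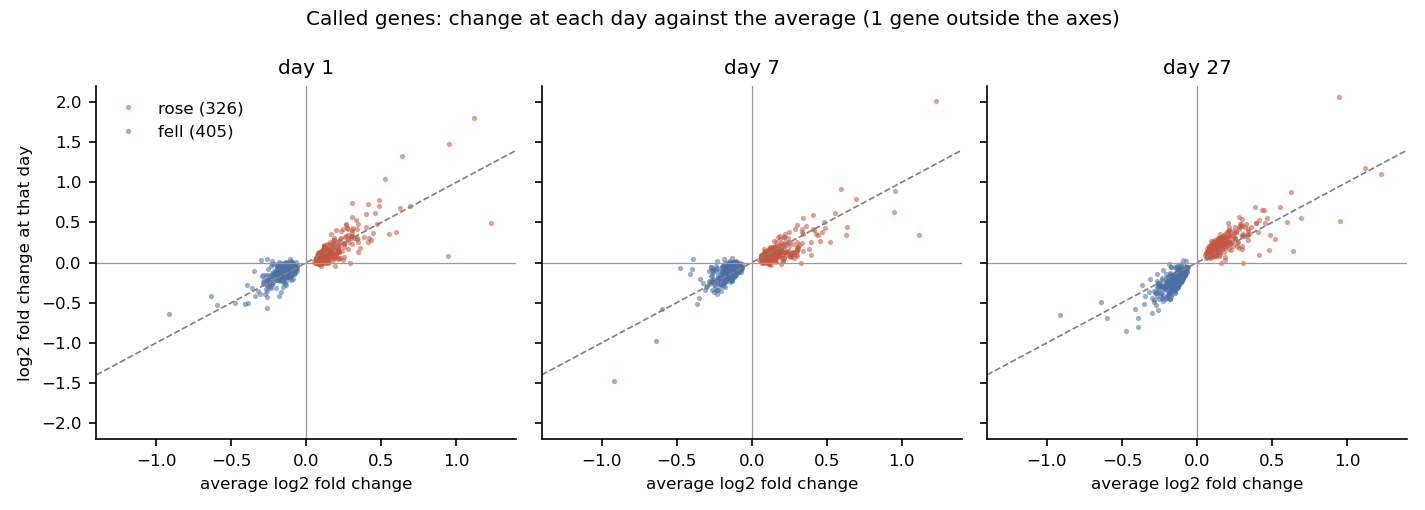
Log2 fold change at day 1, day 7 and day 27 (vertical axes) against the average log2 fold change over the 3 days (horizontal axes) for the 731 called genes, with the line of equality dashed. Most points lie nearer 0 than the line at days 1 and 7 and beyond it at day 27, and 1 gene, Zfp622, lies outside the axes.

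Among genes that rose, the largest change by the naming rule belonged to Creb5, a transcription factor of the CREB and ATF family. Its level in air lungs was 3.54 to 4.76 CPM at day 1 (median 3.98), 3.23 to 4.87 at day 7 (median 4.15) and 1.31 to 5.18 at day 27 (median 2.95). In exposed lungs it was 4.13 to 6.96 (median 5.05), 4.30 to 7.62 (median 6.7) and 2.83 to 6.87 (median 4.96). The ranges overlapped on every day, and 8, 8 and 7 of 8 exposed samples lay above the air mean of their day. The rule for the largest rises and falls asked for at least 6 of 8 on each day. Such counts are therefore a condition of the choice of these genes and no support for a change. The average log2 fold change of Creb5 was 0.55 ± 0.10 (SE), or 1.47-fold, at an adjusted edgeR p of 0.00342. It was 0.56 with the close pairs summed (adjusted p = 0.0163).

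Cxcl1, a chemokine that attracts neutrophils through the receptor Cxcr2, was the only member of a list of 15 measured chemokines and inflammatory cytokines that passed. A further 2 chemokines outside that list, Ccl6 and Ccl9, also passed and were chosen here after their values were seen. The promoters of these 3 genes are shown because the kappa-B motif, the site of NF-kB, is the classical inducible element of inflammatory chemokine promoters. Each line gives the 250 bases before the start site from RefSeq (GRCr8), 5′ to 3′ on the strand of the gene, with matches to GGGNNTTTCC on either strand in capitals.
Cxcl1 (chr14:17479322-17479571, minus strand): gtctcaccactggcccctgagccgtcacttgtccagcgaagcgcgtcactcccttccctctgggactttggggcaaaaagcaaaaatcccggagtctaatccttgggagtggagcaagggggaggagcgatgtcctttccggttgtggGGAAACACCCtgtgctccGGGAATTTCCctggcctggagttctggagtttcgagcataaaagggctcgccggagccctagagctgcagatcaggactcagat
Ccl6 (chr10:68883367-68883616, minus strand): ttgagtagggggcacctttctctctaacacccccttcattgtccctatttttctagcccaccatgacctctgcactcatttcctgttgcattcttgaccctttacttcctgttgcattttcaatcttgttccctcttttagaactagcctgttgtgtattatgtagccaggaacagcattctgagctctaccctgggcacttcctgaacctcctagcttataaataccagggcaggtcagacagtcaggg
Ccl9 (chr10:68868878-68869127, minus strand): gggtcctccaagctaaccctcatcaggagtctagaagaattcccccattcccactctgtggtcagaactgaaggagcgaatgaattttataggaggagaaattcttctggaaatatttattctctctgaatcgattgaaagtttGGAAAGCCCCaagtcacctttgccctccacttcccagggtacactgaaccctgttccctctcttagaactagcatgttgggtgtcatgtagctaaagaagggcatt
The Cxcl1 window held 2 matches, which began 102 and 84 bases before the start site. The Ccl9 window held 1, which began 106 bases before it, and the Ccl6 window held none. The motif was found in 1.3% of all 33469 RefSeq promoter windows of this length, in 1.61% of those of tested genes and in 4 of 11 matched promoters of the chemokine list. A match is a stretch of letters and was not tested for binding, and no match says only that these letters are not in the window.

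Cxcl1 measured 5.22 to 13.3 CPM in air lungs at day 1 (median 7.84), 7.4 to 13.3 at day 7 (median 9.87) and 12.8 to 22.6 at day 27 (median 15.7). Exposed lungs measured 6.93 to 21.0 (median 12.1), 9.14 to 16.1 (median 13.4) and 18.2 to 23.8 (median 20.8). All exposed samples of day 27, 7 of day 7 and 6 of day 1 were above the air mean, and the ranges overlapped on each day. The average log2 fold change was 0.49 ± 0.10 (adjusted p = 0.00885), and 0.44 with the pairs summed (adjusted p = 0.023). The daily values were 0.70, 0.43 and 0.34, and the adjusted p for a difference between days was 0.638. Of the other listed chemokines, Cxcl2 was at 0.61 (adjusted p = 0.0504), Cxcl6 at 0.69 (0.126) and Ccl2 at -0.32 (0.0696), none of which passed.

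Ccl6, a chemokine of myeloid cells, was at 139 to 205 CPM in air lungs and 165 to 356 in exposed lungs at day 1. At day 7 it was at 116 to 224 and 161 to 289 CPM, and at day 27 at 174 to 322 and 163 to 341 CPM. The arms overlapped on each day. The daily log2 fold changes were 0.73, 0.42 and 0.09, with an average of 0.41 ± 0.09 (adjusted p = 0.0119). Ccl9, a second such chemokine, averaged 0.52 ± 0.14 (adjusted p = 0.0305), from 1.04 at day 1 to 0.26 and 0.30 at days 7 and 27, and did not pass with the pairs summed (adjusted p = 0.0642). Cd177, a surface antigen of neutrophils also chosen after its values were seen, averaged 0.95 ± 0.22 (adjusted p = 0.0128), with daily values of 1.48, 0.89 and 0.52. None of 11 measured genes of the neutrophil list passed, and the list's summed level had medians of 288, 188 and 218 CPM in air lungs and 272, 255 and 195 in exposed lungs at days 1, 7 and 27.

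Cd163, the scavenger receptor for haemoglobin bound to haptoglobin on monocyte-derived macrophages, rose by 0.45 ± 0.11 (adjusted p = 0.0156). Its medians were 2.06, 3.86 and 3.39 CPM in air lungs and 3.26, 4.6 and 5.12 in exposed lungs at days 1, 7 and 27, and 7 of 8 exposed samples lay above the air mean on each day. Of 14 measured monocyte and interstitial macrophage genes, 10 were above 0, Cd163 was the only one called, and their median was 0.062. Bulk RNA cannot tell more cells of a type from more RNA per cell. Cd80, a co-stimulatory ligand of antigen-presenting cells, rose by 0.34 ± 0.10 (adjusted p = 0.0323) from air medians of 2.15, 2.44 and 1.71 CPM to 2.54, 3.26 and 2.31.

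The other rises named by the rule were spread over unrelated functions. They included Kcnt2 (0.47), a sodium-activated potassium channel subunit, Kcnab1 (0.34), a potassium channel beta subunit, and Cnr1 (0.34), the cannabinoid receptor 1. Htr1b (0.42) encodes a serotonin receptor and Itgb8 (0.38) an integrin subunit that activates TGF-beta. Ahsa2 (0.36) belongs to the family of Hsp90 co-chaperones, while Pm20d2 (0.45) and the gene model Rn60_10_0705.2 (0.48) complete the 12. Adjusted p-values ran from 0.0161 for Rn60_10_0705.2 to 0.0494 for Htr1b. Most of these genes were scarce, with means of 1.54 to 4.6 CPM for all but Ahsa2, Cnr1, Cxcl1 and Rn60_10_0705.2. With 1 sample left out at a time, Htr1b kept its call in 16 of 48 fits, Kcnab1 in 19, Itgb8 in 25 and Cd80 in 46. The other 8 rises kept theirs in all 48. With the close pairs summed, Cnr1 (adjusted p = 0.0533), Ahsa2 (0.0615), Itgb8 (0.0685), Htr1b (0.0709) and Kcnab1 (0.0743) did not pass.

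**Figure D2:**
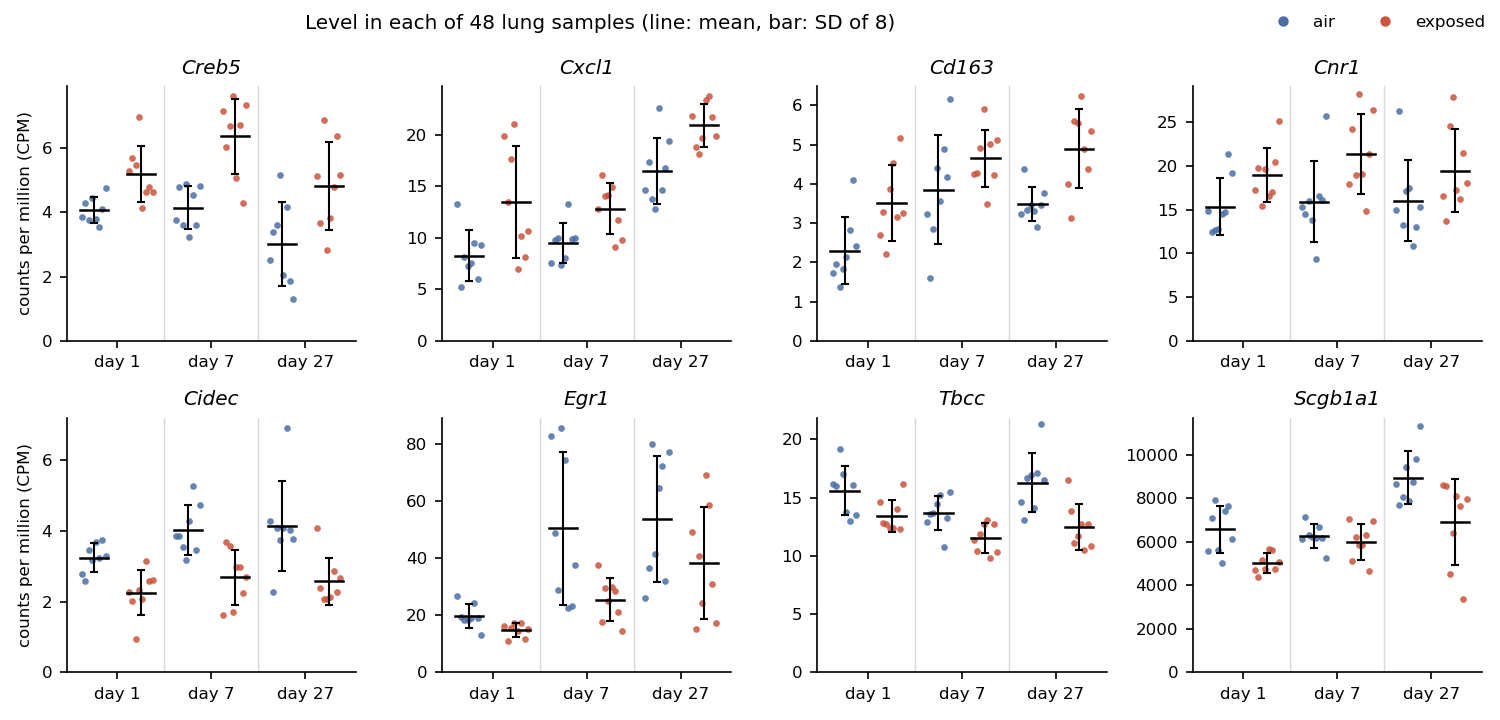
CPM of 8 genes in each of the 48 samples by day (horizontal axes), with air in blue, exposed in red, the group mean as a line and the SD of 8 samples as a bar. The upper row shows genes that rose and the lower row genes that fell, and the ranges of the 2 arms overlap on most days while the means are on the same side on all 3.

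Cidec fell with the smallest adjusted p among the lower genes. It encodes a lipid droplet protein that promotes the merging of droplets, known from fat cells and also listed here among genes of alveolar macrophages. Air lungs held 2.57 to 3.74 CPM at day 1 (median 3.25), 3.19 to 5.26 at day 7 (median 3.84) and 2.28 to 6.9 at day 27 (median 4.04). Exposed lungs held 0.952 to 3.16 (median 2.3), 1.61 to 3.7 (median 2.84) and 2.07 to 4.09 (median 2.33). Every exposed sample was below the air mean of its day, 8 of 8 on all 3 days, where the rule asked for at least 6, though the ranges overlapped. The log2 fold change averaged -0.60 ± 0.10, or 0.661 of the air level (adjusted p = 0.00196), with daily values of -0.53, -0.58 and -0.69 and the same average with the close pairs summed (adjusted p = 0.0142). The fat cell genes Adipoq and Plin1 totalled 210 and 8 counts over all 48 samples and were too low to test. Of 11 measured alveolar macrophage genes 9 were below 0, Cidec alone was called, and their median was -0.076. That median was -0.029 without day 27 and -0.024 with the ribosomal protein level as a covariate, described below. The summed level of that list had medians of 795, 807 and 814 CPM in air lungs at days 1, 7 and 27. In exposed lungs the medians were 811, 765 and 817 CPM.

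Egr1, an immediate early transcription factor, fell by 0.64 ± 0.17 (0.643 of the air level, adjusted p = 0.025). It was 13.0 to 26.7 CPM in air lungs at day 1, 22.7 to 85.6 at day 7 and 26.0 to 80.2 at day 27. Exposed lungs had 10.9 to 17.3, 14.7 to 37.5 and 15.4 to 69.2 CPM. The air samples of days 7 and 27 were widely scattered, and 8, 8 and 6 of 8 exposed samples lay below the air mean. With the pairs summed the value was -0.57 (adjusted p = 0.0623), so this call did not hold there. Btg2, an antiproliferative early response gene, fell by 0.15 ± 0.04 (adjusted p = 0.025), with daily values of -0.14, -0.14 and -0.17. Of 14 measured immediate early genes, Egr1 and Btg2 passed, beside 2.73% of all genes called lower. With the pairs summed Btg2 passed (adjusted p = 0.0479) and was the only one. Of the 14, 13 were below 0 and 10 had 1 sign on all 3 days, beside 36.2% of all genes. The list's median was -0.165 on average, and -0.129, -0.19 and -0.205 at days 1, 7 and 27. Fosb (-0.59, adjusted p = 0.063) and Nr4a1 (-0.34, 0.0645) did not pass. How long each lung waited before the RNA was stabilised is not given in the labels, and its part in the levels of early genes was not tested.

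Glutathione transferases, which detoxify reactive compounds, were among the genes that fell. Gstt3 of the theta class fell by 0.32 ± 0.08 (adjusted p = 0.0197) and Gstt1 of the same class fell by 0.27 ± 0.06 (adjusted p = 0.0105). With the pairs summed Gstt3 did not pass (adjusted p = 0.0514) and Gstt1 did (0.0249). Gstt3 medians were 31.1, 25.1 and 28.0 CPM in air lungs and 22.9, 19.2 and 25.4 in exposed lungs, and Gstt1 medians were 11.6, 10.9 and 14.1 against 9.93, 9.24 and 9.94. A family count made after these values were seen found 18 of 19 tested glutathione transferase genes below 0, with a median of -0.081. Gstt1, Gstt3 and Gstm7 were the 3 called, beside 2.73% of all genes called lower. Gstm7, of the mu class, fell by 0.14 ± 0.03 (adjusted p = 0.00633). Bckdhb, a subunit of the branched-chain keto acid dehydrogenase, fell by 0.35 ± 0.09 (adjusted p = 0.0197), with daily values of -0.11, -0.44 and -0.51.

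Tbcc, a tubulin folding cofactor, fell from air medians of 16.1, 13.6 and 16.6 CPM to 12.8, 11.6 and 12.2, an average of -0.28 ± 0.05 (adjusted p = 0.00477). Tipinl1, a gene named for its likeness to the replication factor Tipin, fell by 0.31 ± 0.06 (adjusted p = 0.00885). Slco4a1, an organic anion transporter, fell by 0.29 ± 0.08 (adjusted p = 0.0274). Clec2l, a C-type lectin, fell by 0.35 ± 0.08 (adjusted p = 0.0158), and Lax1, an adaptor of lymphocyte receptors, fell by 0.27 ± 0.08 (adjusted p = 0.0421), the latter called in 28 of 48 fits with 1 sample left out. Neither passed with the pairs summed (adjusted p = 0.0519 for Clec2l and 0.0795 for Lax1). An identifier named Rpl35a fell by 0.36 ± 0.08 (adjusted p = 0.00885) at a mean of 8.43 CPM. The table has 5 identifiers of that name, so reads could be split between near-identical copies and this value is uncertain.

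The 23 genes with 1 sign and an unadjusted p under 0.05 on every day mostly changed little. Choosing them this way favours genes whose changes are alike on the 3 days. Those on the rising side included Creb5, Cxcl1, Osbpl6, Ipo7, Tbc1d23, Cggbp1 and Snx27. Ipo7, a nuclear import receptor, rose by 0.14 ± 0.03 and Osbpl6, an oxysterol-binding protein relative, by 0.15 ± 0.03 (adjusted p = 0.00342 for each). Tbc1d23 and Snx27, both of endosome traffic, rose by 0.11 and 0.09.

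On the falling side were Cidec, Cyth2, Cyb5r3, Tbcc, Slc7a6os, Nat10, Exosc8, Polr2d, Rpl35a, Arhgap1, Aplnr, Dnajc11, Vps72, Btg2 and Tbc1d17. Cyb5r3, a cytochrome b5 reductase, was at medians of 416, 390 and 437 CPM in air lungs and 392, 362 and 408 in exposed lungs. Its daily changes were -0.11, -0.11 and -0.10 (average adjusted p = 0.0112), and those of Cyth2, an exchange factor for Arf GTPases, were -0.12, -0.12 and -0.11 (average adjusted p = 0.00885). Nat10, an RNA acetyltransferase of the nucleolus, fell by 0.16 ± 0.03 (adjusted p = 0.00525). Exosc8, an exosome subunit, and Polr2d, an RNA polymerase II subunit, had log2 fold changes of -0.18 and -0.15. Aplnr, the apelin receptor of endothelium, fell by 0.16 ± 0.04 (adjusted p = 0.0215). Dnajc11 did not pass on average with the pairs summed (adjusted p = 0.056). For 18 of the 23 genes the largest daily change was 0.23 or less on the log2 scale, and the other 5 were Creb5, Cxcl1, Cidec, Rpl35a and Tbcc.

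Gene lists were described by how many measured members lay on each side of 0, beside the 47.5% of all tested genes above 0. Of all tested genes, 36.2% had 1 sign on all 3 days and 4.92% were called. Members of a list are read from the same samples and can move together, so these counts are not independent observations. The mean level of each list, as log2 of CPM plus 1, also varied between samples of a group. Its SD was 0.281 for glucocorticoid response, 0.383 for heat shock, 0.257 for B cell and 0.405 for mast cell genes. For ribosomal protein and immediate early genes it was 0.106 and 0.228. In the glucocorticoid response list, 12 of 14 members were above 0, with a median of 0.287, and 9 had 1 sign on all 3 days. Zbtb16, a zinc finger repressor that glucocorticoids strongly induce, was called at 0.95 ± 0.25 (adjusted p = 0.023), but its daily values were 0.08, 0.62 and 2.06, with most of the average from day 27 (adjusted p for a difference between days 0.102). It reached 91.4 CPM in 1 exposed sample of day 27, where the median was 13.9 and the air median 6.93. Klf9 (0.30, adjusted p = 0.0204) and Fkbp5, the Hsp90 co-chaperone of the steroid receptor (0.34, adjusted p = 0.0467), also passed, with Fkbp5 at 0.30, 0.38 and 0.33 on the 3 days. With the pairs summed Klf9 passed (adjusted p = 0.04) and Fkbp5 did not (0.0665). The list's median was 0.134 without day 7. Tsc22d3, which encodes the glucocorticoid-induced leucine zipper, has 2 identifiers. The main one, with a mean of 207 CPM, did not pass (0.33, adjusted p = 0.201), while a minor one with 1.19 CPM did (0.60 ± 0.12, adjusted p = 0.00541).

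Socs2, a feedback inhibitor of growth hormone signalling that was named after its values were seen, rose by 0.25 ± 0.05 (adjusted p = 0.00885), with daily values of 0.07, 0.38 and 0.31. In the cytosolic heat shock list, 12 of 13 members were above 0 with a median of 0.212. Hspa1a alone was called (1.23 ± 0.37, adjusted p = 0.0441), and its reads can be split with its near-identical copy Hspa1b (1.30, adjusted p = 0.0725). Hspa1a was at medians of 17.0, 21.3 and 19.3 CPM in air lungs and 38.8, 85.9 and 59.6 in exposed lungs, with single samples as high as 399 CPM. Only 5, 4 and 6 of 8 exposed samples were above the air mean, and the call held in 29 of 48 fits with 1 sample left out and not with the pairs summed (adjusted p = 0.101). Of 15 circadian clock genes 11 were above 0, with a median of 0.181 (0.046 without day 1), and none was called. Of 18 interferon-stimulated genes 14 were above 0, with a median of 0.079 that turned to -0.036 without day 7, and none was called.

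**Figure D3:**
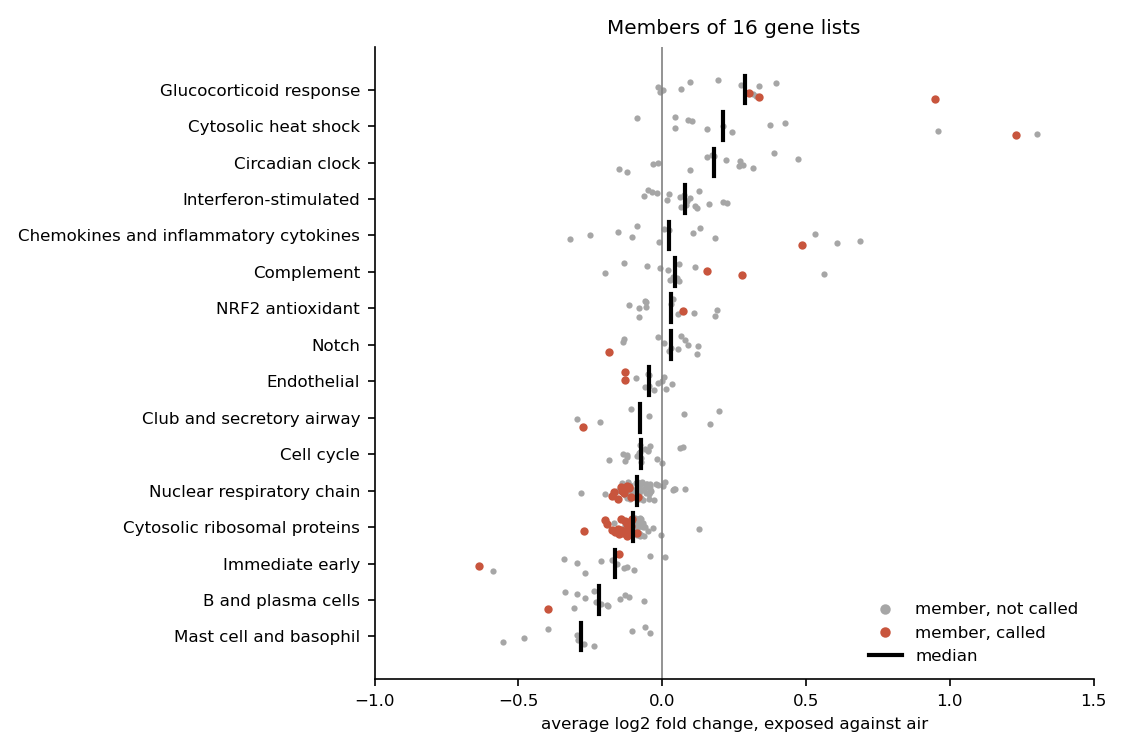
Average log2 fold change (horizontal axis) of each tested member of 16 gene lists, with called members in red and the list median as a bar. Glucocorticoid response and cytosolic heat shock members lie mostly above 0 (medians 0.287 and 0.212), and ribosomal protein, immediate early, B cell and mast cell genes mostly below (medians -0.103, -0.165, -0.221 and -0.282).

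The NRF2 and aryl hydrocarbon receptor programs are often tied to particles and diesel, and 1 of 13 and 0 of 5 of their measured genes passed, a share close to the 4.92% of all genes. Of 13 measured NRF2 antioxidant genes 7 were above 0 with a median of 0.029, and Txnrd1, thioredoxin reductase, was the only one called (0.07 ± 0.02, adjusted p = 0.0311). Its daily values were 0.09, 0.00 and 0.12. Hmox1, haem oxygenase, was at medians of 33.5, 34.8 and 39.3 CPM in air lungs and of 42.0 to 45.4 CPM in exposed lungs. The difference of 0.18 ± 0.06 did not pass (adjusted p = 0.0725), nor did it with the pairs summed (0.139). Hmox1 passed in 2 of 48 fits with 1 sample left out, and with 1 surrogate variable in the model (0.27, adjusted p = 0.00666). Nqo1, a quinone reductase, was at -0.08 ± 0.03 (adjusted p = 0.111). Cyp1a1, the main aryl hydrocarbon receptor target, had daily values of -1.17, 0.37 and -0.70 and an average of -0.48 ± 0.25 (adjusted p = 0.233).

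Of 11 secreted defence genes 2 were called higher, Lcn2 and C3, and of 14 complement genes 2, C3 among them, beside 2.19% of all genes. C3, the central complement protein, rose by 0.28 ± 0.07 (adjusted p = 0.0165), from air medians of 176, 199 and 223 CPM to 219, 224 and 237. In the complement list 10 genes were above 0, with a median of 0.044. Lcn2, the iron-binding lipocalin of epithelium and neutrophils, rose by 0.64 ± 0.19 on average (adjusted p = 0.0419). Its daily values were 1.33, 0.45 and 0.15 (adjusted p for a difference between days 0.262), and its call held in 30 of 48 fits with 1 sample left out and not with the pairs summed (adjusted p = 0.0838). Gpnmb (0.31) and Ctsd (0.16), genes of lysosome-rich macrophages, passed at adjusted p-values of 0.0494 and 0.0459. Their calls held in 15 and 28 of 48 fits with 1 sample left out, and neither held with the pairs summed (adjusted p = 0.0906 and 0.112). Their daily values were 0.74, 0.19 and -0.01, and 0.36, 0.13 and 0.00, and the adjusted p for a difference between days was 0.122 for Gpnmb. Both lacked 1 sign on all 3 days, as did 53 of the called genes in all.

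Among airway and vascular cell genes, called members were lower. Scgb1a1, the secretoglobin of club cells, fell by 0.27 ± 0.07 (adjusted p = 0.0271). It was at 5040 to 7940 CPM in air and 4400 to 5670 in exposed lungs at day 1, 5260 to 7130 and 4670 to 7050 at day 7, and 7680 to 11300 and 3390 to 8630 at day 27. The arms overlapped on each day, with 8, 5 and 8 of 8 exposed samples below the air mean. Of 8 measured club and secretory genes 5 were below 0, with a median of -0.078, and Scgb1a1 alone was called. Tppp3, a tubulin-binding protein of cilia, fell by 0.18 ± 0.04 (adjusted p = 0.0167), 1 of 10 ciliated cell genes called. Over all tested genes, 2.73% were called lower. Among 13 endothelial genes 10 were below 0 and 2 were called. These were Plvap, of capillary diaphragms, and Ramp2, a partner of the adrenomedullin receptor. Each fell by 0.13 ± 0.04 on average (adjusted p = 0.0325 and 0.0333). The daily values were -0.164, -0.019 and -0.202 for Plvap and -0.154, -0.024 and -0.204 for Ramp2, so both were near 0 at day 7. Icam1, a leukocyte adhesion molecule, fell by 0.10 ± 0.03 (adjusted p = 0.0325). With the pairs summed Plvap (adjusted p = 0.0552), Ramp2 (0.0577) and Icam1 (0.0581) did not pass. Dll4, the Notch ligand of endothelial cells, fell by 0.18 ± 0.05 (adjusted p = 0.0221), with daily values of -0.42, -0.11 and -0.02 (adjusted p for a difference between days 0.0792).

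In the matrix and TGF-beta lists, Tgfbr1, the type I TGF-beta receptor, had one of the smallest adjusted p-values (0.00196) with a rise of 0.18 ± 0.03. Its level was 102 to 128 CPM in air and 112 to 143 in exposed lungs at day 1, 123 to 134 and 128 to 147 at day 7, and 91.1 to 119 and 118 to 142 at day 27. The day 27 ranges met only at their edges, and 8, 6 and 8 of 8 exposed samples were above the air mean. The table lists 2 identifiers named Tgfbr1, and this is the more abundant. Of 20 measured TGF-beta and BMP genes 13 were above 0, with a median of 0.034. Pdgfra, the receptor of lung fibroblasts, rose by 0.14 ± 0.04 (adjusted p = 0.025), and Loxl1, which cross-links elastin, fell by 0.15 ± 0.03 (adjusted p = 0.0128). Adamts9, a matrix protease, rose by 0.21 ± 0.06 (adjusted p = 0.0445), with daily values of 0.14, 0.01 and 0.49. Its call held in 26 of 48 fits with 1 sample left out and not with the pairs summed (adjusted p = 0.1).

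Most lymphoid and mast cell genes lay below 0, with few calls. All 14 measured B and plasma cell genes were below 0 (median -0.221), and Cd79a, of the B cell receptor, was the only one called (-0.40 ± 0.10, adjusted p = 0.023). The list's daily medians were -0.135, 0.057 and -0.508, and 4 of the 14 had 1 sign on all 3 days. Its summed level had medians of 928, 744 and 1170 CPM in air lungs at days 1, 7 and 27. In exposed lungs the medians were 740, 705 and 1100 CPM. All 10 mast cell and basophil genes were below 0 (median -0.282) with none called, and their daily medians were -0.152, 0.109 and -0.768. Without day 27 the medians of the B cell and mast cell lists were -0.004 and -0.007. With the ribosomal protein level as a covariate, described below, the B cell median was -0.04 and the mast cell median turned to 0.064. Of 12 T cell genes 10 were below 0 with none called, and their median of -0.055 turned to 0.034 without day 27 and to 0.02 with the covariate. Of 11 NK and cytotoxic genes 10 were below 0, and Tbx21, the T-bet transcription factor, fell by 0.27 ± 0.07 (adjusted p = 0.0219) with daily values of -0.23, -0.34 and -0.23.

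Ribosomal protein genes formed the largest group of called genes among the lists. Of 67 tested cytosolic ribosomal protein genes 66 were below 0, with a median of -0.103, and 22 were called lower, against 2.73% of all genes. The called members ran from Rpl30 (-0.27 ± 0.07, adjusted p = 0.0211) and Rps29 (-0.20, 0.0138) to Rpl19 (-0.09, 0.0451). Summing the pairs left 8 called, beside 2.08% of all genes, while Rpl30 (adjusted p = 0.055) and Rpl19 (0.0853) did not pass. Many of these genes have near-identical copies, and 34 of the 67 had 1 sign on all 3 days. The daily medians were -0.066, -0.007 and -0.23, and the median without day 27 was -0.032. Of 83 nuclear genes of the respiratory chain 77 were below 0, with a median of -0.088. Of the 83, 13 were called lower, against 2.73% of all genes. They included Ndufa5 and Ndufb8 of complex I, Cox4i2 of complex IV and Atp5o of the ATP synthase. Summing the pairs left 3 called, beside 2.08% of all genes, and Cox4i2 (adjusted p = 0.0513), Ndufb8 (0.0685) and Atp5o (0.0696) were not. The list's daily medians were -0.035, -0.044 and -0.19. Its median was -0.035 without day 27 and -0.021 with the ribosomal protein level as a covariate, described below. The mitochondrially encoded genes had 7 of 15 above 0 and a median of -0.02.

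The mean log2 CPM over ribosomal protein genes was taken per sample, and its difference, exposed minus air, was -0.068 at day 1, -0.027 at day 7 and -0.217 at day 27. On those days 6, 6 and 8 of 8 exposed samples were below the air mean. At day 27 the air samples spread from 7.62 to 8.11 and the exposed samples from 7.57 to 7.83. When this level was added to the model as a covariate, 11 genes were called (0.0741%), 9 higher and 2 lower, of which 10 were among the 731. All 731 kept their sign, and the count at an unadjusted p under 0.05 was 1465. The 11 included Ehd4, Adamts15, Ccl6, Rn60_10_0705.2, Socs2, Scimp, Tsc22d3, Atp13a4, Nat10 and Creb5. The level is measured on the same samples as the exposure and fell with it, so exposure and this level cannot be told apart by this fit.

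**Figure D4:**
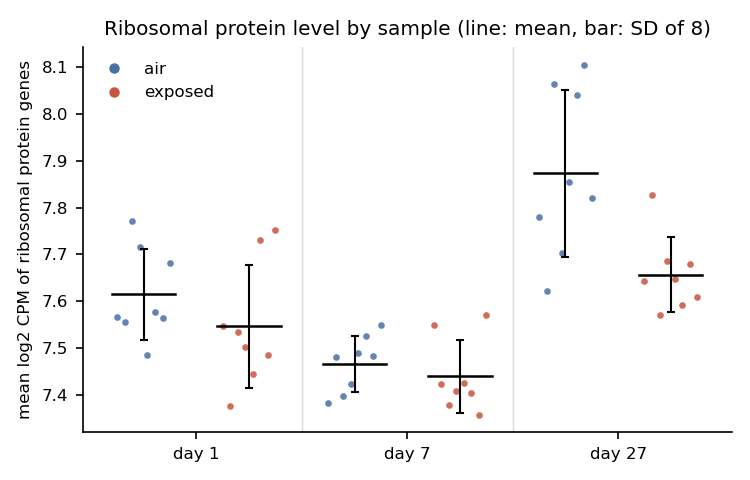
Mean log2 CPM of cytosolic ribosomal protein genes (vertical axis) in each sample by day, with air in blue, exposed in red, the group mean as a line and the SD of 8 samples as a bar. The air samples of day 27 reach 8.11 and lie mostly above the exposed samples, while the arms overlap widely at days 1 and 7.

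The test for an effect that differs between days called 7 genes (0.0471%), and 2271 had a p under 0.05 before adjustment. Ehd4, an endosome protein of endothelial and other cells, was at 576 to 637 CPM in air and 509 to 562 in exposed lungs at day 1, with no overlap. At day 7 it was at 601 to 642 and 549 to 603 CPM, and at day 27 at 598 to 678 and 630 to 695 CPM. Its daily values were -0.21, -0.11 and 0.04 (adjusted p for the difference 0.00807), so its average of -0.09 joined falls at days 1 and 7 with a day 27 value near 0. The average of Smurf2, a ubiquitin ligase of the TGF-beta pathway, was 0.10 and combined -0.05, 0.09 and 0.26. For Rrbp1, a ribosome receptor of the endoplasmic reticulum, an average of 0.09 combined 0.00, 0.00 and 0.27. These 3 genes passed both tests. With the pairs summed the averages of Smurf2 (adjusted p = 0.0509) and Rrbp1 (0.0867) did not pass, 2 genes were called as differing between days, and without 1 sample the average of Rrbp1 passed in 24 of 48 fits. Eif5b, a translation initiation factor, Gapdh, a glycolytic enzyme, Luc7l2, a splicing factor, and the gene model Rn60_7_1165.1 passed only the test of a difference between days. Gapdh, often used as a reference gene, had daily values of 0.11, -0.07 and -0.20 (adjusted p for the difference 0.0371).

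Genes called on 2 days were then looked up on the day that the call had not used, which shares no sample with them. Of 783 genes called from days 7 and 27, 528 (67.4%) had the same sign at day 1, beside 60.6% of all genes. Of 442 called from days 1 and 27, 318 (71.9%) had the same sign at day 7, beside 58.0%. Of 12 called from days 1 and 7, 10 (83.3%) had the same sign at day 27, beside 64.9%. The same sign with an unadjusted p under 0.05 was found for 53, 45 and 2 of them (6.77%, 10.2% and 16.7%), beside 6.01%, 5.78% and 20.4% of all genes, and the opposite sign for 10, 8 and 0. The median change on the unused day, in the direction of the call, was 0.025, 0.033 and 0.079, against 0.158, 0.173 and 0.256 for the median size on the days that made the call.

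Day 27 carried most of the calls. Without its 16 samples 12 genes were called (0.0817%), 5 higher and 7 lower, and all 12 were among the 731. They included Ehd4, Creb5, Adamts15, Ccl6, Sh3bp5, Rn60_10_0705.2, Meox2, Dll4, Rpl35a, Zfp395 and Tipinl1, of which Zfp395 did not pass with the pairs summed (adjusted p = 0.0981). Without day 1 the number was 784 and without day 7 it was 444. In all, 6 genes were called in the fit of all samples, with the pairs summed, without day 27 and with the ribosomal protein level as a covariate. They included Creb5, Adamts15, Ccl6, Ehd4 and Rn60_10_0705.2. Creb5 was at 0.55, 0.56, 0.49 and 0.51 in these 4 fits, and Adamts15, a matrix protease, at 0.19, 0.19, 0.25 and 0.22. The 4 fits share samples, and a call in all of them does not show a change on each day. At days 1, 7 and 27 the values were 0.355, 0.619 and 0.692 for Creb5 and 0.168, 0.325 and 0.063 for Adamts15. For Rn60_10_0705.2 they were 0.785, 0.506 and 0.154. Cidec was at -0.60, -0.60, -0.55 and -0.49, but its adjusted p was 0.0694 without day 27 and 0.0598 with the covariate.

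**Figure D5:**
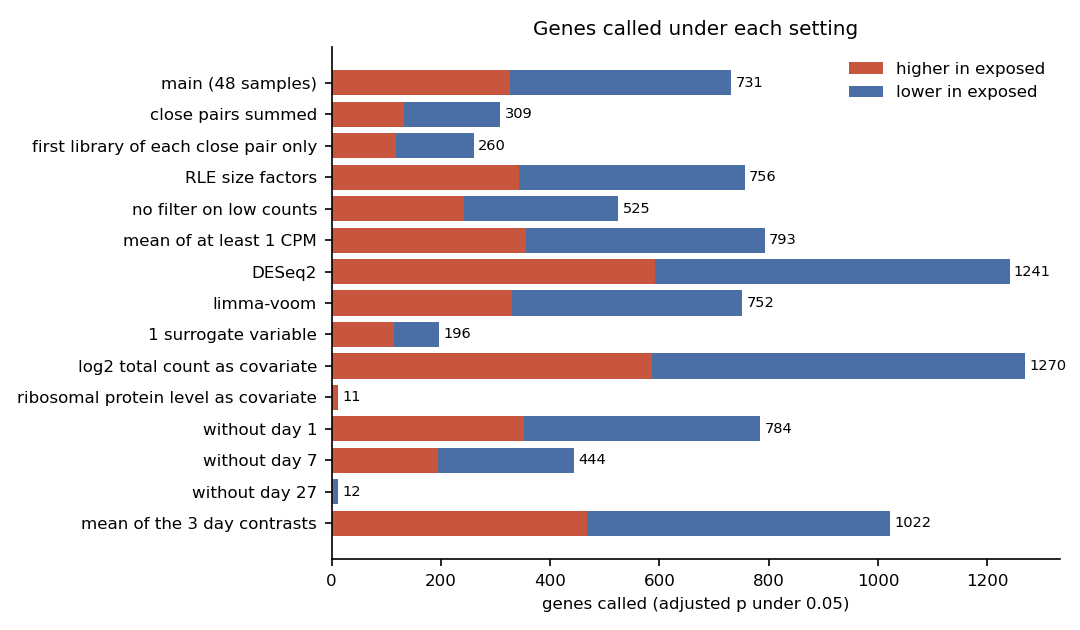
Number of genes called at an adjusted p under 0.05 (horizontal axis) under each setting, with genes higher in exposed lungs in red and lower in blue. The fit of 48 samples called 731, the fit without day 27 called 12 and the fit with the ribosomal protein level as a covariate 11.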

How the data were processed

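RNA of 48 lung samples, 8 in each of 6 groups, was sequenced and quantified by the authors. The values are expected counts per gene identifier as deposited, 1 table for each day, and the 3 tables were joined by identifier. Per the submitters' processing notes, the tools were Salmon 1.10.1, STAR 2.6.1d, cutadapt 3.4, Trim Galore 0.6.7 and bcl2fastq 2.19, and the build was Rnor_6.0; their roles and order are not given in the sources used here. On average 5.58% of all values, zeros included, were not whole, and they were rounded to whole counts. Salmon divides reads among similar transcripts, so genes with near-identical copies are uncertain, and 4671 identifiers share a name with another.

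The main fit used R 4.3.3 and edgeR 4.0.16: filterByExpr by group, TMM scaling, a robust quasi-likelihood test with day as an additive block, and Benjamini-Hochberg adjustment over all 14852 genes with a threshold of 0.05. Standard errors are the fold change over the square root of F. Changes at each day, the test of a difference between days and the largest daily p came from a fit of the 6 group means to the same samples. Promoter sequences are from RefSeq (GRCr8), matched by symbol. The script for the fit was tested on simulated data.

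Close pairs were found from the median squared difference over counting noise among genes averaging 20 counts or more, and their counts were summed. The labels do not say whether these pairs are 1 animal, and they give no sequencing batch. Alternatives were RLE scaling, no filter on low counts, a filter at an average of 1 CPM, DESeq2 1.42.0, limma 3.58.1 with voom, 1 surrogate variable (sva 3.50.0), the total count or the ribosomal protein level as a covariate, leaving out a day, leaving out each sample, and the mean of the 3 daily contrasts.

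Genes named are the 12 largest rises and 12 largest falls among called genes with a mean of at least 1 CPM and 1 sign on all 3 days. At least 6 of 8 exposed samples had to lie on that side of the air mean on each day. Names beginning with LOC, RGD, AABR, ENSRNOG or AC and a digit were left out, but other gene models, such as Rn60_10_0705.2, were not. Up to 2 called members of each of 42 gene lists, up to 5 genes of the test between days, and Lcn2, Cxcl1, Hmox1, Nqo1 and Cyp1a1 were added. Of 555 genes written into the lists by name, 528 have a row. The members of the comparison, the lists and this rule were chosen with earlier results of these data known. Fold changes and counts of the lists are descriptions with no test of the list. Some genes that the rule names or the counts hold are not reported here.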

Additional observations from a re-analysis of the deposited data

Results flagged for a closer look

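Within each group of 8 samples, the 24 genes with the largest rises and falls, the total count and the ribosomal protein level were searched for a sample set far apart from the rest, which chance gives in about 1 group in 20. Of 156 groups 12 held such a sample. Cxcl1 reached 13.3 CPM in air sample 6 of day 7, above the other 7 of its group by a gap wider than the range of those 7. Air sample 8 of day 7 was the highest for Ahsa2 (35.8 CPM, next 21.7), for Cnr1 (25.7, next 16.5) and for the minor Rpl35a identifier (11.3, next 8.88). Air sample 2 of day 27 was the highest for Cnr1 (26.2 CPM, next 17.5) and the lowest for Rpl30 (139, next 205) and Gstt1 (12.0, next 13.9). Kcnab1 was at 3.86 CPM in air sample 1 of day 1, next 2.57. Cidec was at 6.9 CPM in air sample 6 of day 27 (next 4.27) and at 4.09 in exposed sample 1 of day 27 (next 2.86). Gstt3 was lowest in exposed sample 3 of day 27, at 15.9 CPM with the next at 22.8. The ribosomal protein level of exposed sample 2 at day 27 was 7.83, with the next at 7.68.

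The exposure effect differed between days for 5 of the genes named, by the edgeR test of exposure by day. The naming rule takes the 5 genes with the smallest p in this test, so this is not a separate result. In the fit of 48 samples the adjusted p was 0.00807 for Ehd4 and for Eif5b, 0.00982 for Smurf2, 0.0118 for Rrbp1 and 0.0371 for Gapdh. With the close pairs summed, 2 genes passed this test. For Smurf2, Rrbp1, Eif5b and Gapdh the arms did not overlap at day 27: Smurf2 was at 237 to 284 CPM in air and 293 to 329 in exposed lungs, and Eif5b at 139 to 162 and 168 to 191.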

How the results depend on the processing

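The main count of 731 genes became 309 with the close pairs summed, 260 with the first sample of each pair, 1241 with DESeq2, 196 with 1 surrogate variable (115 higher and 81 lower), 1270 with each sample's total count (log2) in the model, 11 with the ribosomal protein level, 444 without day 7 and 12 without day 27. The 678 with 1 sign on all 3 days became 301, 253, 1109, 187, 1174 and 10 under the first 6 of these. The 7 genes that differ between days became 2 with the pairs summed, 2 with the first sample of each, 20 with RLE scaling, 4 without a filter, 263 with DESeq2, 333 with the surrogate variable, 4 with the total count and 3 with the ribosomal protein level. The mean of the 3 daily contrasts, from the fit of the 6 group means, called 1022 genes in place of the 731. The causes were not tested. The count of genes passing on every day after adjustment was 0 under each setting in which it was computed. Counts without 1 sample ran from 337 to 1466 for the average, from 327 to 1331 with 1 sign and from 4 to 198 between days.

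The average count moved by over 1.5 times without 12 of the 48 samples. At day 27 it was 337, 398, 420 and 483 without air samples 7, 3, 6 and 8, 1164 without air sample 2, and 389 and 390 without exposed samples 3 and 8. At day 1 it was 423 and 451 without air samples 3 and 4, and 472 and 1466 without exposed samples 2 and 8. At day 7 it was 1219 without exposed sample 5. Among the 65 named genes, signs reversed only without day 27, for Eif5b (-0.047) and Gapdh (0.018), neither of which is called in the average. The smallest change called with 24 against 24 samples at this depth was 0.05 on the log2 scale.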

Other observations

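The identifier named Zfp622, which was too low for the naming rule and is given here after its values were seen, had counts in 8 of 24 exposed samples and in 1 of 24 air samples. In those of day 1 it lay between 0 and 7.18 CPM with a median of 3.57 in exposed lungs, while all 8 air samples of that day were at 0. The values were either 0 or several CPM, and whether reads moved between similar transcripts was not tested. Its average passed the test (adjusted p = 0.0388), and because most air samples were at 0 no fold is given.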
